A study of Mus musculus with 4 samples.

Results

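The delta and PP cell markers were 6 genes that mark the less abundant endocrine cells of the pancreatic islet. Sst, Hhex, Rbp4 and Ghsr mark delta cells, and Ppy and Pyy mark PP cells. Members were found as the peaks named for these genes in the 2 deposited lists of peaks of N6-methyladenosine (m6A) in mouse islet RNA, one list per genotype. Of the 6 genes, 4 had a peak, among 7491 genes with a peak in either list. Their peaks numbered 4 of the 9411 in the knockout list and 2 of the 10964 in the control list.

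Knockout islets (Wtap-betaKO) came from 19 mice lacking Wtap in beta cells, and control islets (Wtapflox/flox) from 10 mice carrying the floxed Wtap gene, all 7 weeks old and fed normal chow. The promoter that drives the deletion was not given in the sources used here. RNA of each genotype was pooled, and 1 anti-m6A immunoprecipitation (IP) library and 1 input library were made from each pool. With 1 pool per genotype there was no replicate, no error between animals and no test between genotypes. Whole islets were used, so fewer cells of a type and less RNA per cell cannot be told apart. The lists hold peaks and not RNA levels. Read depth is unknown.

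WTAP belongs to the methyltransferase complex that deposits m6A on mRNA, and it brings the catalytic METTL3 and METTL14 pair to its place in the nucleus. The mark is common near stop codons and in the last exon and is read by proteins that act on splicing, translation and decay. Delta cells secrete somatostatin, which restrains insulin and glucagon release, and PP cells secrete pancreatic polypeptide, a hormone of the same family as peptide YY. The genotype is named for deletion in beta cells, so delta and PP cells are cell types outside the named target of the deletion.

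Peaks were found in the genes of the main secreted hormones in both genotypes, and in a transcription factor and a secreted carrier protein in the knockout alone. Of the 6 genes, 4 had a peak in the knockout list, where 21.5% of RefSeq protein-coding genes had one. In the control list 2 of the 6 had a peak, and 25.4% of protein-coding genes did. Genes without RNA in islets are part of both percentages. Sst and Ppy had a peak in both lists, a pattern of 55.2% of the 7491 genes with a peak. Hhex and Rbp4 had a peak in the knockout list alone, a pattern of 16.6% of those genes. No member had a peak in the control list alone, a pattern of 28.2% of genes with a peak. With 4 genes these counts do not separate the members from the background. The defining hormones of delta and PP cells, Sst and Ppy, were each listed in both genotypes.

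Sst (ENSMUSG00000004366), which encodes the precursor of somatostatin, had 1 peak per list at the 3′ end of the gene on chromosome 16, minus strand, GRCm38. The knockout peak lay at 23889573 to 23889775 and the control peak at 23889573 to 23889803. Both were single blocks, of 203 nt in the knockout and 231 nt in the control. They shared the 3′ edge, which was also the end of the RefSeq gene span, and the control peak reached 28 nt farther upstream. The authors' fold enrichment, the ratio of IP over input within the peak, was 1.58 in the knockout and 1.54 in the control. The deposited −log10 p was 159 in the knockout and 114 in the control, and the −log10 q was 155 and 110, in that order. The Sst peak was therefore among the most significant and the least enriched of each list. Only 1.71% of knockout peaks and 1.13% of control peaks had a lower fold, and only 0.255% and 0.337%, in the same order, had a lower p.

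Ppy (ENSMUSG00000017316), which encodes the precursor of pancreatic polypeptide, had 1 peak per list with the same blocks on chromosome 11, minus strand. In both genotypes the peak ran from 102099930 to 102100264 and joined 2 exon blocks of 137 and 99 nt, with the 3′ edge 1 nt past the RefSeq end of the gene. Of the 5793 knockout peaks that overlapped a control peak, 182 (3.14%) had blocks with the same coordinates in both lists, and Ppy was one of them. The fold was 1.65 in the knockout and 1.53 in the control. The −log10 p was 364 in the knockout, where q was listed as 0, and 140 in the control, where the −log10 q was 137. Ppy stood 15th by p in the knockout list and 28th in the control list, while 2.33% of knockout peaks and 1.03% of control peaks had a lower fold.

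A peak at the extreme end of the gene was uncommon over genes of all lengths. Gene length was not matched, and the Sst and Ppy spans were 1770 and 1389 nt. Ends were those of RefSeq, which may differ from the annotation used to call peaks. Among peaks placed on a RefSeq gene span, 46 of 8517 in the knockout (0.54%) and 44 of 10010 in the control (0.44%) ended within 5 nt of the 3′ end. These included the Sst and Ppy peaks of both genotypes. The median fold of such peaks was 2.81 in the knockout and 2.87 in the control, against 3.44 and 3.97 for other placed peaks, so Sst and Ppy lay below both medians.

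**Figure D1:**
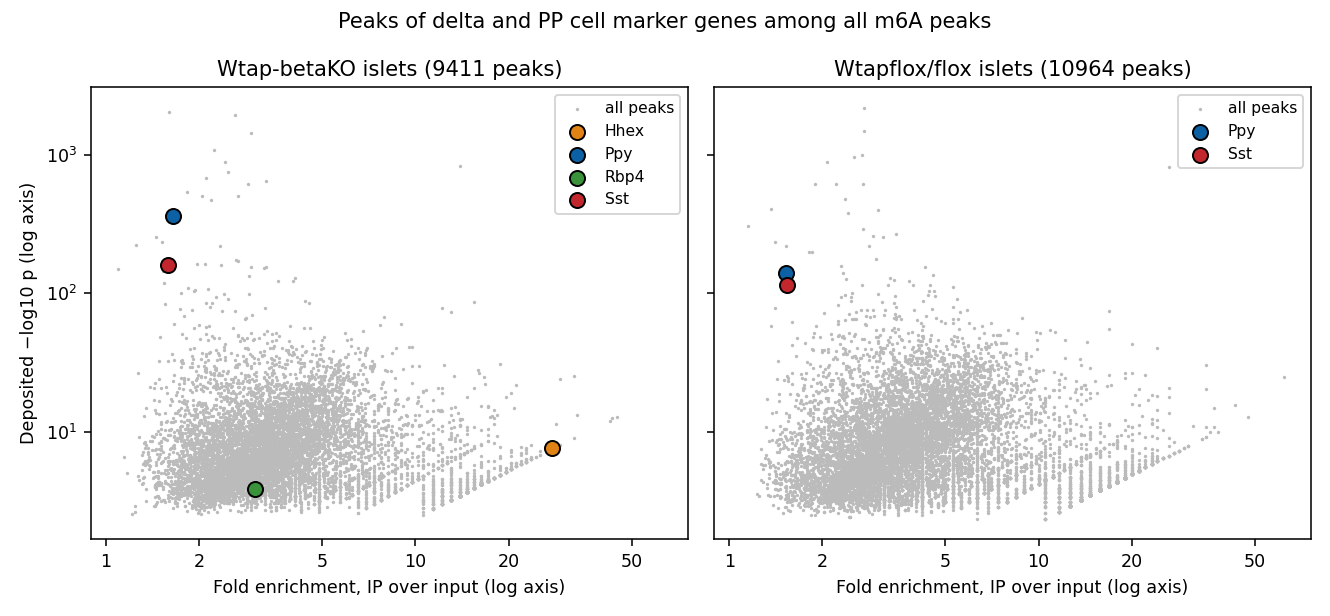
Each grey point is an m6A peak, by the authors' fold enrichment (x, log axis) and deposited −log10 p (y, log axis), in Wtap-betaKO islets (left) and Wtapflox/flox islets (right), with member peaks in colour. Sst and Ppy sit at low fold (1.58 and 1.65 in the knockout, 1.54 and 1.53 in the control) and high significance, whereas Hhex sits at the high-fold edge (27.7) and Rbp4 within the bulk of weak peaks (3.02).

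Both hormone pairs overlapped between genotypes. Over all peaks, 61.6% of knockout peaks overlapped a control peak and 51.6% of control peaks overlapped a knockout peak. Among peaks with a −log10 p of 100 or more, the class that holds Sst and Ppy, 39 of 40 in the knockout and 42 of 42 in the control overlapped the other list. Overlap of the Sst and Ppy peaks is therefore usual at this significance. Of the same peaks, 15 of 40 in the knockout and 10 of 42 in the control had a fold under 2.

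Low folds were also listed for the most significant peaks of other islet hormone genes. For Gcg, which encodes glucagon, the most significant peak had a fold of 1.60 in the knockout and 1.36 in the control. For Ins1, one of the mouse insulin genes, these folds were 1.25 in the knockout and 1.15 in the control. Ins2, the other insulin gene, had a fold of 1.09 in the knockout and no peak in the control. Iapp, which encodes amylin, had no peak in either list. At most 2.33% of the peaks in a list had a fold below that of any of these most significant hormone peaks, Sst and Ppy included. Within the knockout list the order of folds was Ppy, Gcg, Sst, Ins1 and Ins2, and within the control list it was Sst, Ppy, Gcg and Ins1. Gcg and Ins1 each had a second peak per list, with folds of 1.82 in the knockout and 1.41 in the control for Gcg, and of 2.28 in the knockout and 1.43 in the control for Ins1. The spread of these folds between animals is unknown, and Sst and Ppy differed by 0.07 or less in either list.

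The significance of the hormone peaks differed in direction between the genotypes. The −log10 p of Sst, Ppy and Gcg was higher in the knockout than in the control, at 159 against 114 for Sst, 364 against 140 for Ppy and 2050 against 406 for Gcg. For Ins1 it was lower, at 225 in the knockout against 308 in the control. The other insulin gene did not share that direction, as Ins2 had a −log10 p of 150 in the knockout and no peak in the control. These are values of 1 pool each and were not tested. A p-value of this kind moves with read depth and RNA amount as well as with enrichment, and the part of each was not tested.

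**Figure D2:**
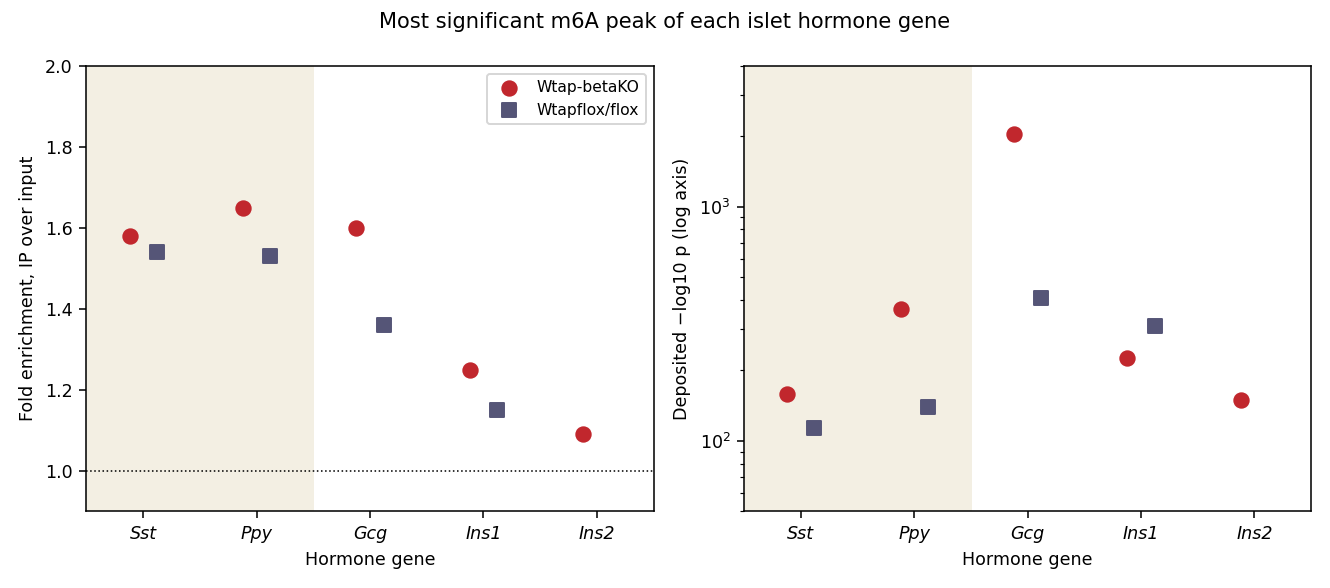
The most significant peak of each hormone gene (x) is shown by fold enrichment (left, linear axis that does not start at 0, dotted line at a fold of 1) and by deposited −log10 p (right, log axis), with circles for Wtap-betaKO and squares for Wtapflox/flox islets, and the delta and PP cell hormones shaded. Folds lie between 1.09 and 1.65, and the knockout −log10 p is higher than the control value for Sst (159 and 114), Ppy (364 and 140) and Gcg (2050 and 406) and lower for Ins1 (225 and 308). Ins2 has no control peak.

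Hhex (ENSMUSG00000024986), which encodes a homeodomain transcription factor required for delta cells in mice, had 1 knockout peak and no control peak. The peak lay on chromosome 19, plus strand, at 37439802 to 37439982, a single block of 181 nt whose 3′ edge was 749 nt from the end of the RefSeq gene span. In the knockout list 16.4% of placed peaks ended at least as near the 3′ end of their gene. The fold of 27.7 ranked 11th of 9411, in a tie, with 0.128% of peaks at that fold or more. The −log10 p was 7.54 and the −log10 q 5.88, and 38.6% of peaks had a lower p.

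The high fold of Hhex is one of a series of repeated values. High folds of the knockout list fell on whole multiples of a single step, 0.815, as 90 of the 91 peaks with a fold of 20 or more did within a tolerance of 0.05 plus 0.1% of the fold. The Hhex fold was 34.0 steps. The peak of Kitl, the gene of stem cell factor, had the same fold, p and q as that of Hhex, and these 2 peaks were the only ones with those values. Of the 91 peaks with a fold of 20 or more, 31 (34.1%) overlapped a control peak, which is below the 61.6% of all knockout peaks. Reads per peak are not in the lists, so the fold of Hhex cannot be read as stronger methylation than in Sst or Ppy.

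Rbp4 (ENSMUSG00000024990), which encodes the secreted carrier of retinol and is a marker of mouse delta cells, had 1 weak knockout peak and no control peak. It lay near the 5′ end of the gene on chromosome 19, minus strand, at 38124997 to 38125174, a single block of 178 nt. RefSeq gives 2 start sites for Rbp4. The peak lay 147 to 324 nt downstream of the start at 38125321 and 186 to 363 nt upstream of the start at 38124811. Starting so near the 5′ end was uncommon, as 2.28% of placed knockout peaks began within the same distance. The fold was 3.02, against a list median of 3.43. The −log10 p was 3.86 and the −log10 q 2.58, and 85.1% of peaks had a lower p. Among the 1401 knockout peaks with a −log10 q no higher than this, 472 (33.7%) overlapped a control peak.

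The 5′ position of the Rbp4 peak let part of it be read in the RefSeq sequence around the downstream start site (GRCm38.p6). This window covered 65 nt of the peak, or 36.5%. It was searched for the m6A consensus NNACN, with a purine at both first positions and any base but G at the last, on both strands. There was 1 match on the transcribed strand, shown in capitals with its flanks, 5′ to 3′, at chr19:38125017-38125045, minus strand.
Rbp4: ttggctccaccgAGACCaccctgagcgga
The opposite strand of these 65 nt also held 1 match. Of 32851 promoter windows cut at the same place, 57.5% held a match on the strand of the gene and 83.3% on either strand, so a match is common at this length. The rest of the Rbp4 peak and the other member peaks lay outside the sequences used here.

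**Figure D3:**
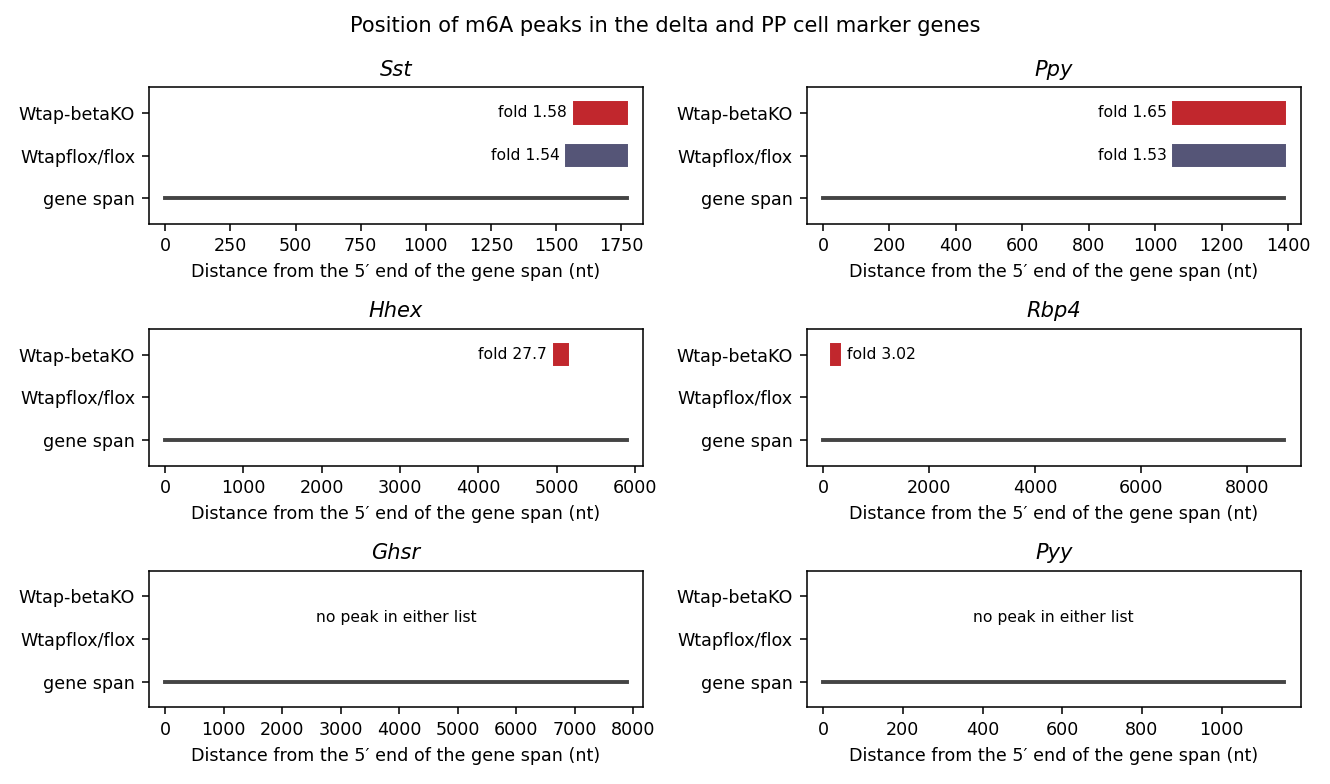
Peaks are drawn to scale along the RefSeq span of each member gene, as distance from the 5′ end in nt, with Wtap-betaKO peaks above Wtapflox/flox peaks and the fold beside each (the Ppy bars include the gap between the exon blocks). Sst and Ppy have peaks at the 3′ end in both genotypes, Hhex has a knockout peak 749 nt from the 3′ end, Rbp4 has a knockout peak 147 nt from the 5′ end, and Ghsr and Pyy have none.

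Ghsr (chromosome 3, 27371351 to 27379235, plus strand), which encodes the ghrelin receptor, and Pyy (chromosome 11, 102106676 to 102107832, minus strand), which encodes peptide YY, had no peak in either list. No peak of another name lay within their gene spans on either strand, and none of the 6 members overlapped another RefSeq gene. Pyy lies 5356 bp from Ppy on the same strand of chromosome 11, so the closest gene with a peak was Ppy in both genotypes. The genes with peaks on either side of Ghsr were Tnfsf10 and Fndc3b in both genotypes, at 35.4 and 40.2 kb in the knockout and at 35.6 and 40.0 kb in the control. A missing peak means that the caller listed none, and RNA level and depth at these genes are not given by the lists.

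Genes whose peaks were most like those of each member were found by the distance in log2 fold and in the log10 of −log10 q, among genes with the same number of peaks in each of the 2 lists. Sst was nearest to Rpl41, a ribosomal protein gene, with folds of 1.55 in the knockout and 1.60 in the control, then to Pcsk1n (1.84 and 2.30) and Ucp2 (1.93 and 2.02), of 1537 candidates. Pcsk1n encodes the proSAAS granule protein. Ppy, for which −log10 p was used because of its q of 0, was nearest to Sst at a distance of 0.376, followed by Rpl41 and Pcsk1n at 0.735 and 0.805. Of 1100 genes with 1 knockout peak alone, Hhex was nearest to Kitl (27.7), Zfp873 (26.9) and Ptprz1 (24.5) by knockout fold. Rbp4 was nearest to Zfp395, Smad2 and Bmt2, with knockout folds of 2.95, 3.10 and 3.04.

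Of 6 genes for somatostatin receptors and cortistatin, 3 had a knockout peak and 1 a control peak, against 21.5% and 25.4% of protein-coding genes. Sstr3 had 4 knockout and 5 control peaks, with best −log10 q of 30.0 in the knockout and 49.7 in the control. Sstr1 and Sstr2 each had a single peak, in the knockout alone, with folds of 14.7 and 5.50 and −log10 q of 2.59 and 2.50, a pattern of 16.6% of all genes with a peak. The fold of Sstr1 lay on the repeated step.

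Over all protein-coding genes, 21.5% had a knockout peak and 25.4% a control peak. Among 8 genes for signals that reach delta cells, 1 had a peak. It was Ucn3, which encodes the beta cell peptide urocortin 3 that stimulates somatostatin release, with 1 knockout peak (−log10 q of 23.1) and 2 control peaks (best 72.3). Its receptor gene Crhr2, the ghrelin gene Ghrl and the fatty acid receptor gene Ffar4 had none. Besides Ppy and Pyy, 7 genes for the PP-fold family, its receptors and peptidase were examined. Of these only Dpp4, whose protease product trims peptide YY and neuropeptide Y, had a peak, in the knockout alone with a fold of 3.57. Of 20 retinol and retinoic acid genes, 2 had a knockout peak and 1 a control peak. Ttr, which encodes transthyretin, the partner of the RBP4 protein in blood, had a knockout peak alone with a fold of 1.27. The receptor gene Rxra had 2 peaks per list. A peak in the knockout alone, as for Dpp4 and Ttr, was a pattern of 16.6% of all genes with a peak.

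All 10 prohormone processing genes had a knockout peak and 8 had a control peak, against 21.5% and 25.4% of protein-coding genes. Chga, Chgb and Scg2, which encode granins, had the lowest q, and Cpe and Scg5 had knockout peaks alone with folds of 1.39 and 1.48. Of 13 lineage transcription factor genes, 8 had peaks in both lists (55.2% of all genes with a peak), 2 (Neurog3 and Pou3f4) in the knockout alone and 1 (Rfx3) in the control alone. The TLE corepressor family, partners of Hhex, had Tle3 in both lists and Tle5 in the control alone, of 6 genes. With 1 knockout and 2 control peak genes of 6, the family was near the 21.5% and 25.4% of protein-coding genes. Over all genes with a peak, 16.6% had it in the knockout alone and 28.2% in the control alone.

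Among markers of other islet and pancreatic cells, a knockout peak was found for 6 of 8 alpha cell, 8 of 9 beta cell, 5 of 7 endothelial, 3 of 6 ductal and 2 of 9 acinar markers, and a control peak for 4, 7, 6, 1 and 2 of them, where 21.5% of protein-coding genes had a knockout peak and 25.4% a control peak. The acinar counts are near that background. Immune markers had 1 knockout and 2 control peak genes of 6, stromal markers 1 and 1 of 6, and Schwann cell markers 0 and 1 of 4, and the epsilon cell marker Ghrl none in either list. The ductal markers Krt7, Sox9 and Spp1 had knockout peaks alone, as Hhex and Rbp4 did, a pattern of 16.6% of genes with a peak. Hhex is also expressed in pancreatic ducts and Rbp4 in other tissues. The part of other cell types in the Hhex and Rbp4 peaks was not tested.

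**Figure D4:**
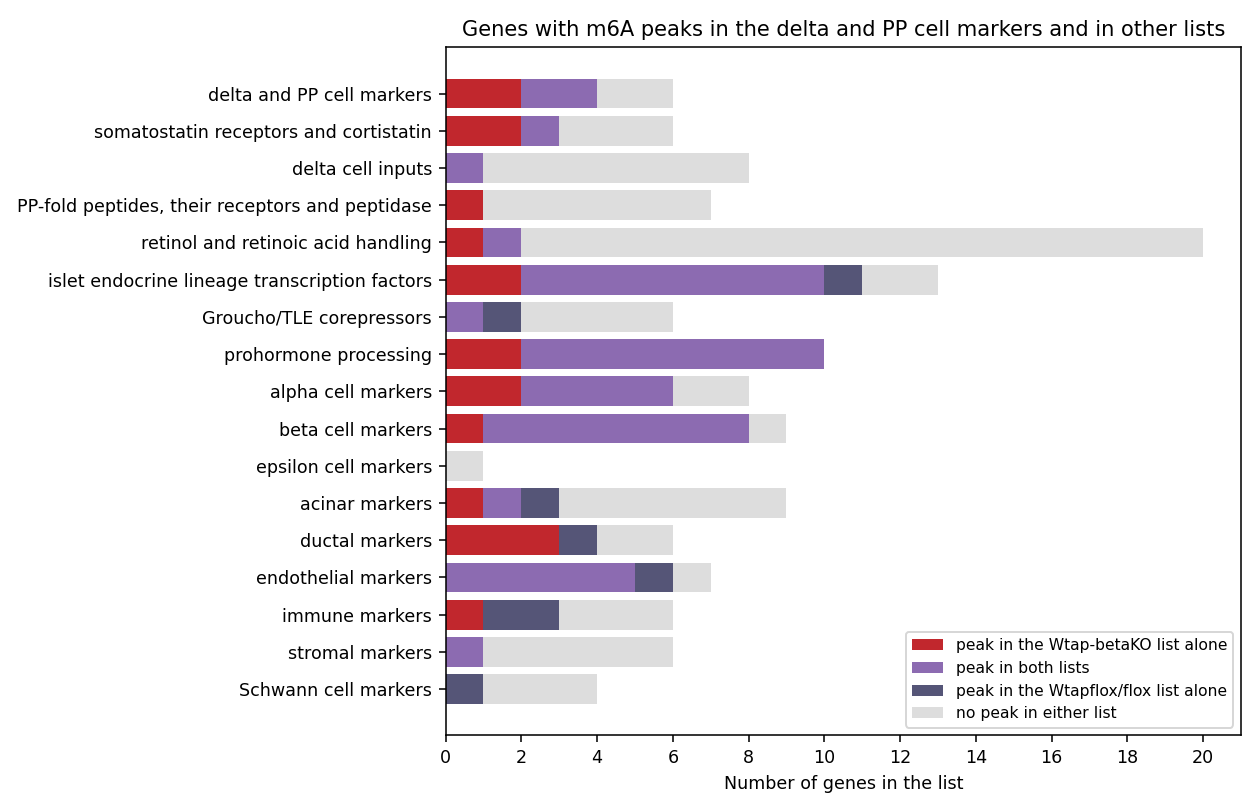
Bars give the number of genes in each list (x) with a peak in the Wtap-betaKO list alone, in both lists, in the Wtapflox/flox list alone or in neither. Of the 6 delta and PP cell markers, 2 had a knockout peak alone, 2 had peaks in both lists and 2 had none.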

How the data were processed

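The 2 deposited peak lists were matched to the genotypes through the abbreviations that list names and sample titles have in common. Per the submitters' processing notes, the tools were fastp 0.19.11, BWA 0.7.12 and HOMER 4.9.1 and the build GRCm38 (mm10). Per the labels, RNA cut to about 100 nt was incubated with the antibody for 2 hours and sequenced with 150 bp paired reads, and the authors called peaks with exomePeak 2.16.0, IP against input of the same genotype, at a q threshold of 0.05. The annotation release was not given in the sources used here. The deposited p-value, its log10 and the log10 of q (score columns without bounds) and the deposited fold ratio were used as given, to describe and rank peaks within a list.

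Starts were taken as 0-based and printed 1-based. Peaks counted as shared when any of their exon blocks had 1 bp or more in common on one strand. Gene spans and promoter windows (250 nt before to 50 nt after a start) were RefSeq GRCm38.p6, matched by symbol or by a synonym of a single gene, which placed 90.5% of knockout and 91.3% of control peaks. Members, the 16 other gene lists and the naming rule were chosen with earlier results of these data known. The rule named every member, up to 3 genes per list and pattern by q, the 3 genes most like each member and the nearest genes with peaks; Crhr2, Ghrl, Ffar4, Gcg, Ins1, Ins2 and Iapp were added after their values were seen. No test was possible with 1 pool per genotype. Overlap code gave 0 wrong calls in 5000 simulated pairs. Python 3.11.15, pandas 2.3.3, NumPy 2.4.6, SciPy 1.17.1 and Matplotlib 3.10.9 were used.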

Additional observations from a re-analysis of the deposited data

How the results depend on the processing

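Of 38 alternative values, 25 stayed within 1.5 times for counts or within the 95% interval for shares. With q of 0.001 or less, 1 member (Hhex) had a knockout peak alone, since Rbp4 dropped out. With a fold of at least 2, the Sst and Ppy peaks dropped out, which left 2 members with a knockout peak, 0 with a control peak and 0 overlapping peaks in either list. With equal numbers of peaks, 21.1% of all genes with a peak had one in the knockout list alone. Ordering by p in place of fold put 38.6% of knockout peaks above Hhex, 85.1% above Rbp4, 0.149% above Ppy and 0.255% above Sst, and 0.246% and 0.337% of control peaks above Ppy and Sst. With peaks on the repeated step left out from a fold of 8 upward, 55.9% of peaks lay above Rbp4 by fold. That setting was not run for Hhex, which is on the step. A 50% reciprocal overlap, a 200 bp neighbourhood, merged peaks and matching by position changed no member count. No paired analysis was possible because there was only 1 pool of each genotype, and for the same reason no replicate could be left out. What depth limits cannot be given, since the lists hold no reads.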

Other observations

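Other genes shared the end position and the significance of the Sst and Ppy peaks. Among peaks that ended within 5 nt of the 3′ end of the RefSeq gene span, 5 in the knockout and 4 in the control had a −log10 p of 100 or more. Besides Sst and Ppy, those in the knockout were Gcg, Lgals3bp and Gnas, which encodes the stimulatory G protein alpha subunit. In the control they were Lgals3bp and C2cd4b. Gcg also had a control peak at the 3′ end of its span, with a fold of 1.41 and a −log10 p of 78.1, under this cut. The fold of the Lgals3bp peak was 1.75 in the knockout and 2.68 in the control, and the fold of the Gnas peak was 2.66. These genes were named after their values were seen.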
